A study of Mus musculus with 8 samples.

Results

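The genes that make nucleotides and carry the folate-bound carbon units for them were examined in cultured myeloid cells from the spleen of *Tff2*-/- mice, with and without recombinant TFF2 (rTFF2). TFF2 is a secreted trefoil peptide. A list of 33 enzymes was taken, and a gene counted as measured where a probe set of the array carried its symbol and no other. This held for 27 of the 33, of 12393 genes measured in all, and each gene was read from the brightest of its probe sets, by the mean of the 8 arrays. *Mthfd1l*, *Pfas*, *Atic*, *Impdh2*, *Gmps* and *Dctd* matched no such probe set and were not analysed here. The measured genes were 4 of folate metabolism, 9 of purine, 5 of pyrimidine and 9 of deoxynucleotide synthesis. All cells came from 4 male *Tff2*-/- mice of 16 weeks on a C57BL/6 background that had drunk 3% DSS, a chemical that injures the colon, for 5 days and were killed 14 days later. Sorted Gr1+Cd11b+ splenic cells (immature myeloid cells) of each mouse were divided between a control culture with GM-CSF (Csf2, a myeloid growth factor) and a culture with GM-CSF plus 3 μM mouse rTFF2, both kept for 7 days. The labels give GM-CSF as 5 nM and the methods give a different dose. Each group thus held n = 4 cultures, 1 array each, paired by mouse, and every cell lacked its own *Tff2*, so the comparison is of added peptide in knockout cells and holds no wild-type group.

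Folate enzymes move single carbon atoms from serine onto tetrahydrofolate, in the mitochondrion through *Shmt2* and *Mthfd2* and in the cytosol through *Shmt1* and *Mthfd1*. Purine rings are built step by step on ribose phosphate with carbons from folate, or are salvaged from free bases, while pyrimidine rings are closed first and joined to ribose phosphate afterwards. Ribonucleotide reductase then removes an oxygen to give the deoxynucleotides that DNA synthesis uses. Myeloid cells that divide in response to GM-CSF make much DNA, and several of these enzymes are known to be most abundant in dividing cells.

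Promoter windows of 4 genes are shown, since they belong to a folate and a deoxynucleotide enzyme with large falls (*Mthfd2* and *Tk1*) and to neighbouring purine genes with different calls (*Paics* and *Ppat*). The windows run from 250 bases before to 50 bases after the RefSeq start site (GRCm38.p6) and are written 5′ to 3′ on the strand of the gene. Capitals mark matches, on either strand, to 4 motifs, namely the E-box CACGTG, the E2F-type sites TTTGGCGC, TTTCCCGC, TTTCGCGC and TTTGCCGC, the box CCAAT and the ATF4-type site TGATGNAA. *Mthfd2* lies on chr6:83317555-83317854 (minus strand), *Tk1* on chr11:117825965-117826264 (minus strand), *Paics* on chr5:76951052-76951351 (plus strand) and *Ppat* on chr5:76951529-76951828 (minus strand).
Mthfd2: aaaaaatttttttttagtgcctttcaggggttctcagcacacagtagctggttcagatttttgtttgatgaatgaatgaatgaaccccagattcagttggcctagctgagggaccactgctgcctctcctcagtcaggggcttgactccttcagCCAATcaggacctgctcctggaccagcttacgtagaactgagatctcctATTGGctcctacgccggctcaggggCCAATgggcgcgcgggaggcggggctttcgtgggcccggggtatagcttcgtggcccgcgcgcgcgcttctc
Tk1: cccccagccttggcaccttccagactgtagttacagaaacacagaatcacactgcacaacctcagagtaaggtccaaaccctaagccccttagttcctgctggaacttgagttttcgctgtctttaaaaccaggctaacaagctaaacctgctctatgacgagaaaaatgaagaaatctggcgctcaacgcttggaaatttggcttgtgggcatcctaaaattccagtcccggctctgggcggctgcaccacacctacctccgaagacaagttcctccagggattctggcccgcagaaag
Paics: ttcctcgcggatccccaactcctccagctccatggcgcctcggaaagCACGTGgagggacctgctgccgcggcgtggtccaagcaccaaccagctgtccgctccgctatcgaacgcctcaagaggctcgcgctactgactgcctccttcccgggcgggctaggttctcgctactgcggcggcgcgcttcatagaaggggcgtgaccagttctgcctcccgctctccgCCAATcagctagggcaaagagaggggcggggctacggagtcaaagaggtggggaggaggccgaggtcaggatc
Ppat: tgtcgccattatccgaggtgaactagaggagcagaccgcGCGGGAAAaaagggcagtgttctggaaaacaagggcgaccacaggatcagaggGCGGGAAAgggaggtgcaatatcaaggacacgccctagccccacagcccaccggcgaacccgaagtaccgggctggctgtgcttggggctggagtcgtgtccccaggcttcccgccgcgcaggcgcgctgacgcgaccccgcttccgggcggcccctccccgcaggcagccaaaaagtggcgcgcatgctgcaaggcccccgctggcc
The *Mthfd2* window held 3 CCAAT boxes, starting 96, 47 and 22 bases before the start site and the *Tk1* window held no match. *Paics* and *Ppat* lie on opposite strands with start sites 276 bases apart. From these sites each is transcribed towards the start site of the other. The *Paics* window held an E-box and a CCAAT box, and that of *Ppat* held 2 E2F-type sites. Over the 26 measured genes with a window, 10 (38.5%) held a CCAAT box against 41.1% of all 27025 genes with windows, 4 (15.4%) an E-box against 8.09%, 1 (3.85%) an E2F-type site against 2.6% and 1 (3.85%) the ATF4-type site against 4.51%. A gene counted where any of its windows held the letters. No motif contains another, and matches that share letters counted for each motif.

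With rTFF2, 15 of the 27 genes fell and none rose (limma with the mouse as a block, adjusted p under 0.05 over all probe sets). Over all genes tested, 13.3% were lower and 14.5% higher by the same call. The fallen genes were *Mthfd1*, *Mthfd2* and *Shmt2* of folate metabolism, *Gart* and *Paics* of purine synthesis, *Cad*, *Dhodh* and *Ctps* of pyrimidine synthesis, and *Rrm1*, *Rrm2*, *Dut*, *Dtymk*, *Tk1*, *Dck* and *Nme2* of deoxynucleotide synthesis. Decreases ran from 1.17-fold to 2.45-fold. The median log2 change of the 27 genes was -0.31, against -0.03 over all genes. In 11 genes every rTFF2 culture lay below every control culture, which was so for 13.8% of all genes, and in 1 (*Impdh1*) every rTFF2 culture lay above, as for 13.6% of all genes. Without the mouse as a block 11 genes fell and 1, *Impdh1*, rose. At an unadjusted p under 0.05 that same gene was the single one that was higher. All 27 genes were above the background level of the array in at least 1 group. The signals are deposited log2 values of the array, so the level of a gene is not comparable with that of another gene. In RNA of whole cultures, fewer cells of a type and less RNA per cell cannot be told apart.

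**Figure D1:**
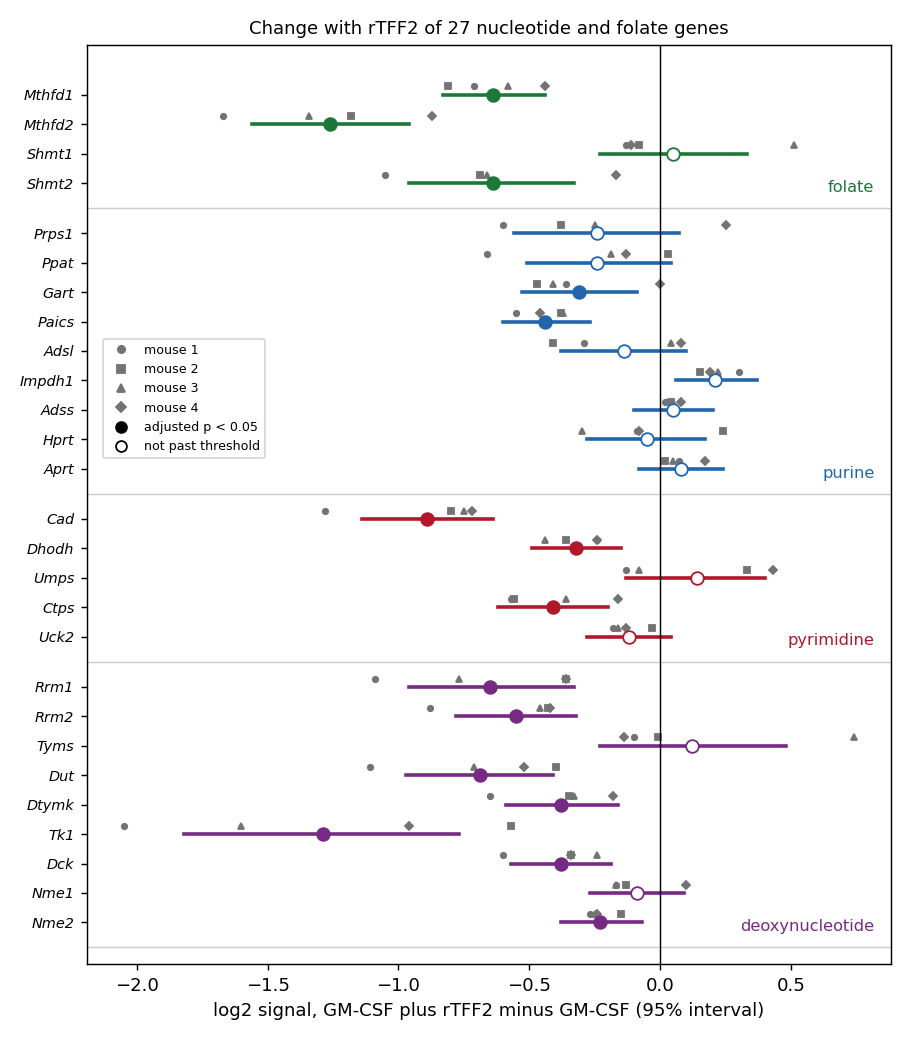
Log2 difference (GM-CSF plus rTFF2 minus GM-CSF) of 27 genes in 4 classes. Large points are the limma estimates with 95% intervals, filled where the adjusted p was under 0.05, and small grey symbols are the 4 mice. *Tk1* (-1.29) and *Mthfd2* (-1.26) lie furthest to the left, and no filled point lies to the right of 0.

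Of the 4 measured folate genes, 3 fell. *Mthfd2* encodes a mitochondrial enzyme that oxidizes methylene-tetrahydrofolate. Its log2 signal in mice 1 to 4 was 10.11, 9.72, 9.90 and 10.00 with GM-CSF alone and 8.43, 8.54, 8.56 and 9.13 with rTFF2. The groups did not overlap, and the decrease was 2.40-fold (log2 change -1.26, standard error 0.13, adjusted p = 8.5e-04 from limma). *Shmt2*, the mitochondrial enzyme that takes the carbon from serine, stood at 6.17, 5.99, 6.04 and 5.90 in the control cultures and at 5.12, 5.29, 5.38 and 5.73 with rTFF2. It fell 1.56-fold (log2 change -0.64, standard error 0.13, adjusted p = 0.013), with the smallest difference in mouse 4 (-0.17). *Mthfd1*, a cytosolic enzyme with 3 activities of the folate path, stood at 7.50, 7.74, 7.22 and 7.19 and at 6.79, 6.94, 6.64 and 6.75. It fell 1.55-fold in the same sense, without overlap (adjusted p = 0.0021). The cytosolic counterpart of *Shmt2*, *Shmt1*, had 4.77 ± 0.40 and 4.82 ± 0.25 (SD, n = 4 mice) and a log2 change of 0.05 with a 95% interval from -0.23 to 0.33 (adjusted p = 0.80). It was lower in 3 mice and higher in mouse 3. The log2 change of *Shmt2* was 0.69 below that of *Shmt1* on average over the 4 mice (SD 0.48), and lay below it in 4 of 4, by 0.06 in mouse 4. *Shmt2* did not pass without mouse 3 (adjusted p = 0.056), with a range from 0.0064 to 0.15 over its alternatives.

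Of 9 purine genes, 2 fell (22.2%, beside 13.3% over all genes), and 7 did not pass. Along the route from ribose phosphate, *Prps1* makes the activated ribose, *Ppat* commits it to the purine path, *Gart* carries out 3 steps and *Paics* a further pair, and *Adsl* splits off fumarate. *Paics* was 11.94, 11.87, 11.89 and 11.90 in the control cultures and 11.39, 11.49, 11.53 and 11.44 with rTFF2. The replicates lay close together, the groups were apart, and the fall of 1.36-fold passed (log2 change -0.44, standard error 0.07, adjusted p = 0.0046). Its neighbour *Ppat* had 6.98, 6.83, 6.56 and 6.48 against 6.31, 6.86, 6.36 and 6.35, a log2 change of -0.24 with an interval from -0.51 to 0.04 (adjusted p = 0.19). The groups overlapped, and mouse 2 did not follow the others. *Gart* stood at 7.52, 7.92, 7.40 and 6.96 and at 7.16, 7.45, 6.99 and 6.96. It lay just under the threshold (log2 change -0.31, adjusted p = 0.049), with a difference of -0.00 in mouse 4, and failed in 8 of 12 alternatives, among them the fit without the block (adjusted p = 0.28) and the fits without mouse 1, 2 or 3. The log2 changes of *Prps1* (-0.24) and *Adsl* (-0.14) did not pass, and those of *Prps1* ran from -0.60 in mouse 1 to 0.25 in mouse 4. Without mouse 4 *Prps1* passed as lower (log2 change -0.41, adjusted p = 0.039). A probe set shared with *Prps1l3*, left out by the rule, was lower (-0.31, adjusted p = 0.021 from limma) and is described at the end.

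Past the branch point, the measured genes of AMP and GMP formation and of salvage moved little. *Impdh2* and *Gmps*, also listed for GMP formation, were not measured. *Impdh1*, which oxidizes IMP on the way to GMP, had a signal of 3.65, 3.64, 3.67 and 3.75 in the control cultures and of 3.95, 3.79, 3.89 and 3.93 with rTFF2. It was higher in 4 of 4 mice without overlap by 0.21 on the log2 scale, at adjusted p = 0.056 with the block and 0.042 without it, and its control signals were close to the background level of 3.61, under which 95% of 36 genes of other tissues lay. *Adss*, which makes adenylosuccinate on the way to AMP, had a log2 change of 0.05 (interval -0.10 to 0.20). The salvage enzymes *Hprt*, for hypoxanthine and guanine, and *Aprt*, for adenine, had changes of -0.05 (-0.28 to 0.17) and 0.08 (-0.08 to 0.24). These intervals are narrow next to the falls of *Mthfd2* or *Tk1*, and none of the 3 genes passed.

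Of 5 pyrimidine genes, 3 fell. *Cad* encodes the enzyme with the opening 3 steps of pyrimidine synthesis. Its signal was 7.27, 7.48, 6.97 and 7.07 with GM-CSF alone and 5.99, 6.68, 6.22 and 6.35 with rTFF2. All rTFF2 cultures lay below all control cultures, and the decrease was 1.85-fold (log2 change -0.89, standard error 0.11, adjusted p = 0.0016). *Dhodh*, the mitochondrial dihydroorotate dehydrogenase, stood at 4.96, 5.20, 5.14 and 5.09 and at 4.72, 4.83, 4.71 and 4.86, a fall of 1.25-fold (adjusted p = 0.018). *Ctps*, which turns UTP into CTP, had 6.31, 6.50, 5.93 and 5.74 against 5.74, 5.94, 5.57 and 5.58. Its fall of 1.33-fold was seen in each mouse, but the groups overlapped, and the adjusted p was 0.015 with the mouse as a block and 0.11 without it. *Umps*, which completes UMP between *Dhodh* and *Ctps*, had a log2 change of 0.14 (interval -0.13 to 0.40), lower in mice 1 and 3 and higher in mice 2 and 4. *Uck2*, the uridine and cytidine salvage kinase, had -0.12 (interval -0.28 to 0.04, adjusted p = 0.23). *Dhodh* lost its call without mouse 2 and without mouse 3, and *Ctps* without mouse 1, 2 or 3.

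Of 9 deoxynucleotide genes, 7 fell. *Tk1*, the cytosolic thymidine kinase, fell 2.45-fold (log2 change -1.29, standard error 0.22, adjusted p = 0.0065). Its signal was 7.63, 7.12, 7.70 and 7.79 in the control cultures and 5.58, 6.55, 6.10 and 6.83 with rTFF2. Each rTFF2 culture lay below each control culture, while the size of the fall differed, from 0.57 in mouse 2 to 2.05 in mouse 1 on the log2 scale. Both subunits of ribonucleotide reductase fell. *Rrm1*, the large subunit, stood at 9.89, 10.03, 9.85 and 9.77 and at 8.81, 9.67, 9.08 and 9.41, a decrease of 1.56-fold (adjusted p = 0.012). *Rrm2*, the small subunit, stood at 11.55, 11.73, 11.40 and 11.33 and at 10.67, 11.30, 10.95 and 10.91, a decrease of 1.46-fold (adjusted p = 0.0069). Neither subunit overlapped between the groups, and in both the fall was largest in mouse 1.

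*Dut* removes dUTP and supplies dUMP for thymidylate. It had 10.50, 10.55, 10.42 and 10.43 against 9.39, 10.15, 9.71 and 9.90, a decrease of 1.61-fold without overlap (adjusted p = 0.0065). *Dtymk*, the thymidylate kinase, went from 9.95, 9.96, 9.77 and 9.67 to 9.29, 9.61, 9.44 and 9.49, 1.30-fold lower (adjusted p = 0.023). *Dck*, the deoxycytidine kinase of salvage, went from 12.28, 12.52, 12.08 and 12.08 to 11.68, 12.19, 11.84 and 11.74. It was 1.30-fold lower in the paired fit (adjusted p = 0.015) and did not pass without the block (0.076). Both cultures of mouse 2 were the highest of their group. *Nme2*, a nucleoside diphosphate kinase, had the smallest fall that passed, 1.17-fold (log2 change -0.23, adjusted p = 0.044). It lost its call without any one of the mice and without the block (0.10). Its close relative *Nme1* had a change of -0.09 (interval -0.27 to 0.09), and cross-hybridization between these similar genes was not tested. *Tyms*, the thymidylate synthase, had a dim probe set, at 4.21 ± 0.23 and 4.33 ± 0.25 (SD, n = 4), and a change of 0.12 (interval -0.23 to 0.48). It was lower in 3 mice and higher in mouse 3. A brighter probe set, shared with the pseudogene *Tyms-ps* and left out by the rule, was lower (-0.63, adjusted p = 0.011 from limma) and is described at the end. *Rrm1* lost its call without mouse 3, *Dtymk* without mouse 1, 2 or 3, and *Dck* without mouse 1.

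**Figure D2:**
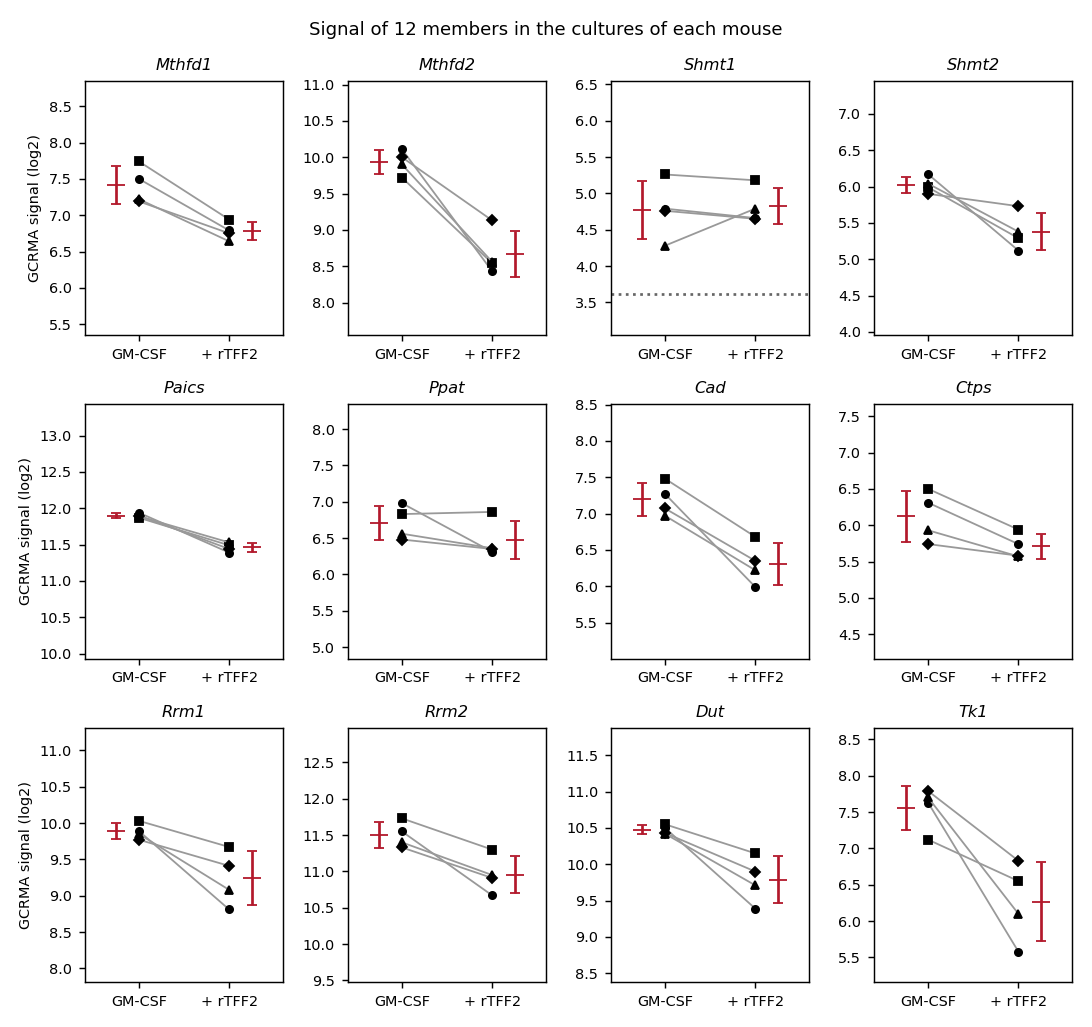
GCRMA signal (log2) of 12 genes in the control and rTFF2 cultures, with a line for each mouse (circle, square, triangle and diamond for mice 1 to 4), red bars for mean ± SD of n = 4, while dots trace the background level (3.61) where a panel reaches it. All panels span the same number of log2 units, each centred on the mean of its own gene. The lines of *Mthfd2*, *Cad* and *Tk1* descend in every mouse, while those of *Shmt1* and *Ppat* do not.

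The array holds 32 further probe sets for 19 of the 27 genes, 25 of them above the background level. Of the 25, 21 had the same sign as the probe set used, 18 had the same call, and none had the opposite call. For genes that fell, 11 of 18 further probe sets fell too. The second probe sets of *Mthfd2* (-0.89), *Cad* (-0.92) and *Rrm1* (-0.80) were lower by similar amounts on the log2 scale, and so were both further ones of *Mthfd1* (-0.43 and -0.64) and *Rrm2* (-0.44 and -0.68). *Gart* had other values, with 0.05 and -0.11 in its further probe sets, neither of which passed. For *Paics* 1 further probe set fell (-0.56) and 1 did not pass (-0.21, adjusted p = 0.24). *Dhodh* had -0.21 (adjusted p = 0.35). For *Shmt2* (-0.35, adjusted p = 0.063), *Dtymk* (-0.33, adjusted p = 0.17) and *Dck* (-0.35, adjusted p = 0.17) 1 further probe set did not pass, while another of each fell. Probe sets of a gene share the RNA and are not replicates.

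**Figure D3:**
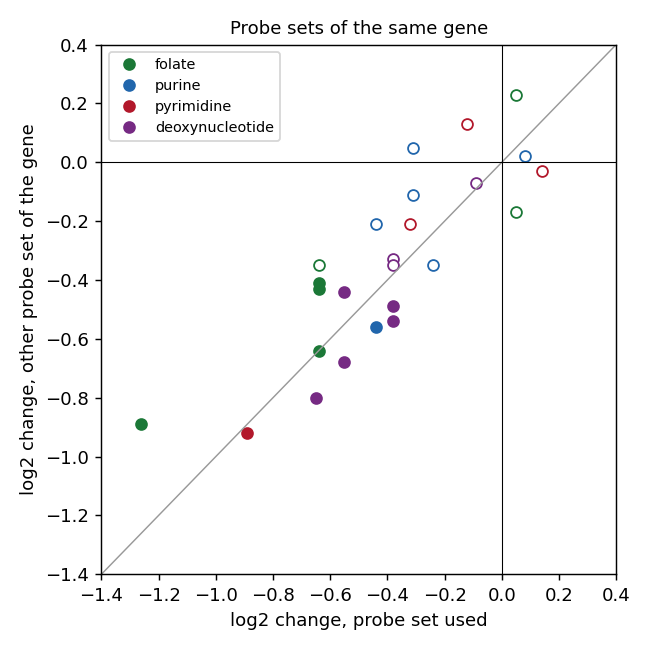
Change with rTFF2 (log2) of 25 further probe sets against that of the probe set used for the same gene, coloured by class and filled where the further one fell with an adjusted p under 0.05. The line marks equal values, and the points for *Gart* (x = -0.31) lie above it.

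Genes around these routes were taken from lists of neighbouring enzymes, 65 of them measured and 52 above background in at least 1 group. Of the 65, 10 were called lower (15.4%) and 12 higher (18.5%), beside 13.3% and 14.5% over all genes. In the folate and methionine cycle 2 of 13 were called lower. *Ahcy*, which clears S-adenosylhomocysteine, fell (-0.98 on the log2 scale, adjusted p = 0.0023). *Aldh1l1*, which oxidizes formyl-tetrahydrofolate, was near background, at 3.66 ± 0.59 in the control and below the level in the rTFF2 cultures, and its call (adjusted p = 0.036) was lost without the block (0.38). *Mtrr*, which reactivates methionine synthase, did not pass (-0.22, adjusted p = 0.10). Of 5 genes of serine synthesis and uptake, the neutral amino acid carrier *Slc1a4* (-1.46, adjusted p = 3.2e-04) and the serine synthesis enzyme *Psat1* (-0.94, adjusted p = 0.0016) fell. *Slc1a5* (-0.28) did not pass.

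Among further genes of nucleotide supply, salvage and breakdown, calls went both ways. Of 18 further purine genes 5 were called higher (27.8%) and 4 lower (22.2%), and of 12 further pyrimidine genes 4 higher (33.3%) and 1 lower (8.33%). Over all genes, calls went both ways too, with 14.5% higher and 13.3% lower. The lower pyrimidine gene, *Upb1*, and 1 of the lower purine genes, *Ak1*, were below the background level in both groups, so their calls carry no measured level. *Ada*, the adenosine deaminase, was 5.25, 6.13, 4.55 and 4.57 in the control cultures and 6.42, 7.26, 6.78 and 6.88 with rTFF2. It rose by 1.71 on the log2 scale without overlap (adjusted p = 0.0020). *Gda*, which deaminates guanine, rose by 0.72 (adjusted p = 0.0031), and *Adk*, which returns adenosine to AMP, fell (-0.44, adjusted p = 0.0043). *Upp1*, which splits uridine, rose by 0.70 (adjusted p = 0.0017) and *Nt5c3*, a pyrimidine nucleotidase, by 0.84 (adjusted p = 0.0022). Of 13 further deoxynucleotide genes 3 rose (23.1%) and 1 fell (7.69%). The one that fell, *Dctpp1*, which degrades modified deoxycytidine triphosphates, changed by -1.27 (adjusted p = 0.0011), and *Glrx*, the glutaredoxin that can hand electrons to reductase, rose by 0.43 (adjusted p = 0.0070). Of 4 nucleoside carriers none passed, and 2 were at background.

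Some enzymes with a second gene for the same reaction moved in different ways. These pairs were picked after their values were seen. *Tk2*, the mitochondrial thymidine kinase, was 7.09, 6.91, 7.33 and 7.45 in the control cultures and 8.18, 7.83, 8.12 and 8.27 with rTFF2, a rise of 0.91 on the log2 scale (adjusted p = 5.0e-04) beside the fall of *Tk1*. *Ctps2* was 8.48, 8.83, 8.74 and 8.42 and rose to 9.55, 9.56, 9.41 and 9.35, by 0.85 (adjusted p = 8.8e-04), beside the fall of *Ctps*. *Rrm2b*, the small subunit of reductase used outside S phase, stood 0.29 higher at an adjusted p of 0.10, and got no call,, while *Rrm2* fell. In each of these 3 pairs the change of the member lay below that of its partner in 4 of 4 mice, on average by 2.20 (SD 0.73) for thymidine kinase, 1.26 (SD 0.27) for CTP synthase and 0.84 (SD 0.50) for the small subunit. *Prps2* fell (-0.45, adjusted p = 0.023) and *Prps1* did not pass, but the change of *Prps1* lay below that of *Prps2* in 1 mouse and above it in 3. A probe set shared by *Prps1* and *Prps1l3*, left out by the rule, was lower (-0.31, adjusted p = 0.021 from limma with the block and 0.24 without it).

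**Figure D4:**
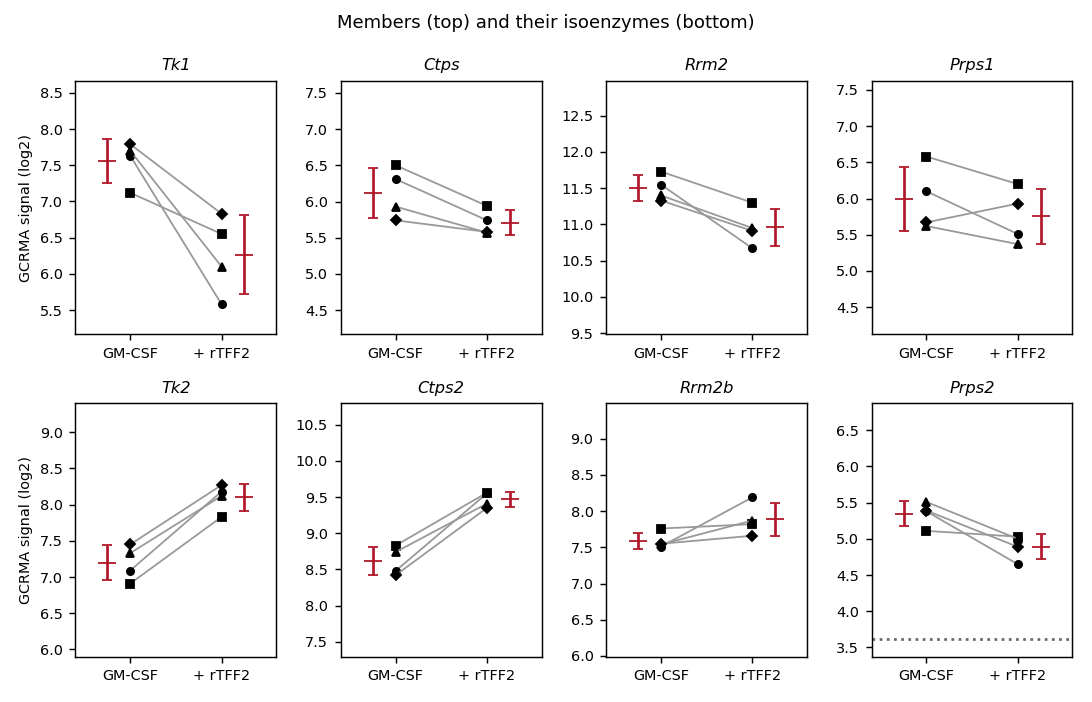
GCRMA signal (log2) of 4 members (top) and of the second gene for the same reaction (bottom) in the cultures of each mouse, with symbols, bars and dots as in the plot of 12 genes. *Tk2* and *Ctps2* rise in every mouse, whereas *Tk1* and *Ctps* fall.

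Lists of DNA replication and mitosis genes served for comparison. Of 29 replication genes 25 fell (median log2 change -0.63) and of 22 mitotic genes 21 fell (median -0.86), with none higher in either. The replication genes with the smallest adjusted p were *Pola1* (-0.87), *Pold2* (-0.85) and *Prim1* (-0.86), which encode polymerase and primase subunits, and those of mitosis were *Prc1* (-1.22), *Cenpe* (-1.13) and *Kif20a* (-1.11), which act on the spindle. Among the enzymes described here, 7 of 9 deoxynucleotide genes fell (median -0.38), 3 of 4 folate genes (median -0.64), 3 of 5 pyrimidine genes (median -0.32) and 2 of 9 purine genes (median -0.14). The difference between these lists was not tested.

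**Figure D5:**
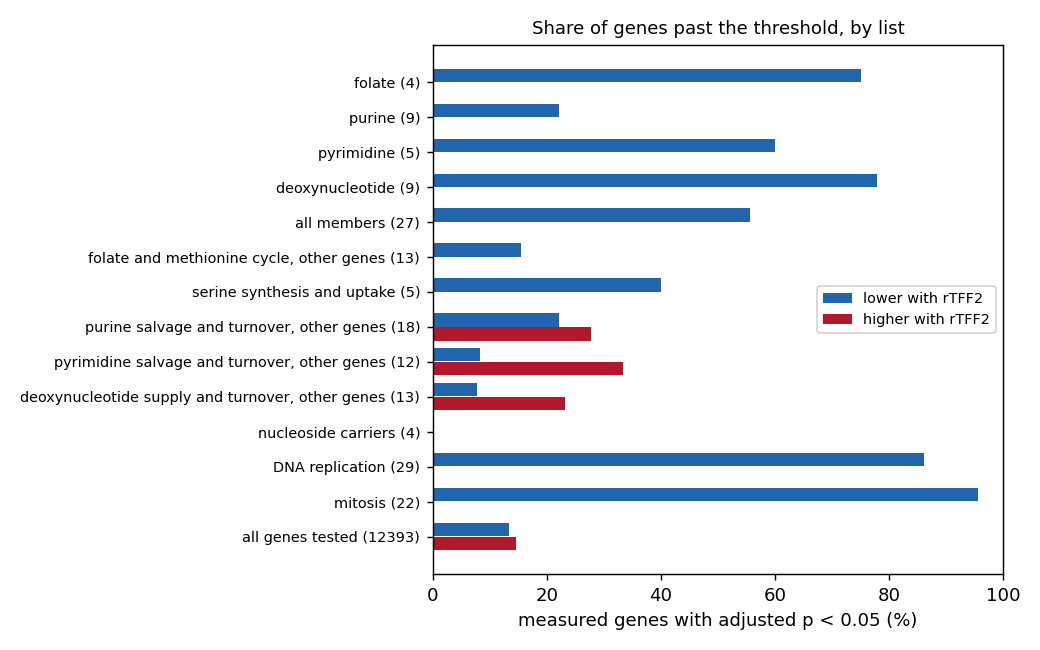
Percent of the measured genes of each list (number in brackets) with an adjusted p under 0.05, lower in blue and higher in red. Bars for lower genes reach 77.8% for deoxynucleotide genes and 22.2% for purine genes, against 13.3% over all genes, and lists of salvage and turnover genes have bars of both colours.

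The mice differed in the size of the change. The median difference over the 27 genes was -0.55 in mouse 1, -0.36 in mouse 2, -0.30 in mouse 3 and -0.16 in mouse 4, and 24, 21, 21 and 19 genes were lower in the same order. Without both cultures of mouse 3, 8 genes fell, and without mouse 1 or mouse 2, 10 each. The difference between the 3′ and 5′ control probe sets of *Actb*, which grows with RNA degradation, was 0.53 ± 0.09 in the control and 0.70 ± 0.05 in the rTFF2 cultures (SD, n = 4, exact permutation test without pairing by mouse, two-sided p = 0.029, the smallest possible for it). With that difference as a covariate in place of the block, 3 genes passed as lower, *Mthfd2*, *Paics* and *Tk1*. The log2 changes of *Rrm1* (-0.66), *Dut* (-0.75), *Dhodh* (-0.32) and *Shmt2* (-0.56) were of similar size to those with the block but no longer passed. Those of *Cad* (-0.70), *Rrm2* (-0.47), *Mthfd1* (-0.27), *Dtymk* (-0.27), *Dck* (-0.22) and *Nme2* (-0.13) were smaller and did not pass. Those of *Gart* (0.07) and *Ctps* (0.01) turned. The same difference for *Gapdh* was 0.22 ± 0.07 and 0.26 ± 0.04 and overlapped between the groups (exact permutation test without pairing, two-sided p = 0.4). The groups were apart in the *Actb* measure, so its part in the result cannot be told apart from that of rTFF2.

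All 9 measured markers of myeloid cells were above background in both groups, with *Itgam* (CD11b) at 12.35 ± 0.20 and 12.72 ± 0.14. Of the 9, 3 rose (*Itgam*, *Cd14* and *Csf2ra*), and the summed linear signal did not overlap (38806 to 48612 in the control against 49034 to 57586 in the rTFF2 cultures). Probe sets for *Ly6g* and *Ly6c1*, the Gr-1 antigens, were not among the genes with a single symbol, so Gr-1 was not checked. Markers of other cell types moved with rTFF2. All 13 neutrophil genes rose, and their summed linear signal went from 38119 to 71071 in the control cultures to 92644 to 108319. Of 10 basophil and mast cell genes 7 rose (207 to 512 against 4259 to 7828), with *Cma1*, *Tpsb2* and *Mcpt4* at background, and 8 of 9 dendritic cell genes fell (18952 to 26138 against 4810 to 7844). Of 11 macrophage genes 6 rose and 4 fell, and their summed signal overlapped between the groups (7909 to 11720 against 11260 to 13097). Of 11 T and NK cell genes 9 were at background in both groups, *Cd3e* among them. *Nkg7* rose by 1.89 from below background, and *Il7r* stood at 10.01 ± 0.11 and 9.91 ± 0.11. Of 9 B cell genes 8 were at background, *Cd79a* among them, with *Ighm* at 5.97 ± 0.29 and 6.26 ± 0.34. Of 7 erythroid genes 6 were at background, *Klf1* among them, with *Tfrc* at 10.81 ± 0.62 and 11.00 ± 0.34. Of 11 stromal and endothelial genes 9 were at background, and *Acta2* (0.76) and *Pecam1* (0.79) rose. The summed signals of the T and NK cell, B cell and erythroid lists overlapped between the groups (986 to 1151 against 979 to 1115, 92 to 121 against 89 to 127, and 1276 to 3030 against 1749 to 2886), and those of the stromal list did not (207 to 250 against 278 to 452). In these lists most of the sum came from the brightest gene, *Il7r*, *Ighm*, *Tfrc* and *Acta2* in that order. The sums therefore do not measure a cell type, and the rise of *Nkg7* hardly shows in them. The part of the cell type markers in the change of the nucleotide genes was not tested.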

How the data were processed

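Expression was measured in 8 cultures on Affymetrix mouse GeneChip arrays, 1 array per culture. The authors normalized the arrays with GCRMA (GCRMA 2.30.0 and affy 1.36.0 in the submitters' processing notes) and deposited log2 signals, with no genome build named in the sources used here. Of 22690 probe sets, 64 array controls were set aside and 22626 tested. By the platform annotation 20380 had 1 gene symbol, 691 several and 1555 none.

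Groups and mouse numbers came from the sample labels. Per the methods, each mouse gave cells to both cultures. Values were fitted in R 4.3.3 with limma 3.58.1 (lmFit, eBayes) with the mouse as a fixed block, and Benjamini-Hochberg adjustment covered all 22626 probe sets (threshold 0.05). The methods name limma and no pairing, so the fit without the block was an alternative. Deviations from the group means correlated within a mouse at 0.046, 0.54, 0.319 and 0.394 for mice 1 to 4 (range between different mice, -0.546 to 0.346; 12597 probe sets above background), so the pairing rests on the shared animal. The background level, 3.61, is the value that 95% of 36 genes of other tissues stayed under. Array medians ran from 4.089 to 4.203. The number of arrays limits precision. The fit was tested on simulated data.

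The enzymes, the lists and the tests were chosen with earlier results of these data known. The rule named every enzyme, and up to 3 genes of each further list by smallest adjusted p. Alternatives were a trended and robust prior, renewed quantile normalization, median centring, an offset of 32, a filter on dim probe sets, averaged probe sets per gene, a threshold of 0.01, *Actb* as covariate and leaving out each mouse. Promoter windows came from RefSeq, and motif searches were not tested.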

Additional observations from a re-analysis of the deposited data

Results flagged for a closer look

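In the rTFF2 cultures, the *Ppat* signal of mouse 2 (6.86) stood apart from those of the other mice (6.31 to 6.36), with a gap of 0.91 of the whole range. This was 1 of 54 groups of 4 cultures examined, and chance alone marks about 1 in 20. Without mouse 2 *Ppat* still did not pass.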

How the results depend on the processing

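Over 324 values for single genes under the 12 alternatives, 267 kept direction and call, and *Mthfd2*, *Paics* and *Tk1* passed in all 12. The number of fallen genes was 15, between 8 and 15 when each mouse was left out, 7 at a threshold of 0.01 and 3 without the block with the *Actb* covariate, and between 10 and 15 otherwise. Without the replicate block, 11 fell, and 1 rose without it, with the offset of 32 and with the mean of probe sets (*Impdh1* each time). Probe sets past the threshold numbered 5811, with 4927 without the replicate block, 2906 at the threshold of 0.01, 2295 with the covariate and 3609 to 5006 without each mouse; the mean of probe sets gave 3504 of 12393 genes, a smaller table. With the covariate 1 folate, 1 purine, 0 pyrimidine and 1 deoxynucleotide gene fell. At 0.01 it was 1 purine, 1 pyrimidine and 3 deoxynucleotide genes. Purine genes numbered 1 without the replicate block, with the trended prior, with the offset and with the mean of probe sets. Without each mouse, 2 to 3 folate, 1 to 3 purine, 1 to 3 pyrimidine and 4 to 6 deoxynucleotide genes fell.

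With the covariate, 2 of the fallen genes lost their direction, *Gart* (0.07) and *Ctps* (0.01), and the sign also turned for *Prps1* (0.35), *Adsl* (0.34), *Adss* (-0.02) and *Nme1* (0.18), none of which passed. *Shmt1* was at -0.03 with quantile normalization and between -0.10 and 0.11 when each replicate was left out, *Hprt* between -0.15 and 0.03 and *Tyms* between -0.08 and 0.21 (each turned without replicate 3), *Adss* at -0.00 with median centring, and *Uck2* (0.01) and *Tyms* (-0.03) turned with the mean of probe sets. The cause was not tested. With 4 mice, small changes could be missed, as in the dim probe set of *Tyms* with its interval from -0.23 to 0.48.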

Other observations

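The annotation gives 2 further probe sets to a member together with a related gene, and the rule left them out. The probe set shared by *Tyms* and its pseudogene *Tyms-ps* had means of 7.92 ± 0.22 and 7.29 ± 0.29 (SD, n = 4 mice) and a log2 change of -0.63 (adjusted p = 0.011 from limma), lower in 4 of 4 mice. The probe set shared by *Prps1* and *Prps1l3* had 6.52 ± 0.32 and 6.21 ± 0.24 and a change of -0.31 (adjusted p = 0.021 with the block and 0.24 without it), lower in 4 of 4 mice. In both, the signals of the gene and of its relative cannot be told apart.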
